A study of Homo sapiens with 2 samples.

Results

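MicroRNA genes were read on Affymetrix arrays of H1299 cells by 173 probe sets that the platform annotation assigns to 1 symbol each, a symbol beginning with MIR and a digit or with MIRLET7, of 33297 probe sets in all. Host gene symbols ending in HG were left out of the members, and 32 further probe sets that carry a microRNA symbol together with other symbols are given apart. H1299 is an established human line from a non-small cell lung carcinoma; it carries no p53, which as a transcription factor answers DNA damage. Total RNA came from H1299 cells labelled as having p53 and from an H1299 negative control, with 1 array per group. The labels do not give the vector, dose or time of the p53 treatment, nor what the negative control received. With 1 array on each side no difference below has a replicate error or a p-value. Values are log2 intensities, and differences are log2 with p53 minus log2 in the negative control.

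MicroRNA genes are transcribed as long primary transcripts, often from the introns of a host gene or as a cluster of several hairpins. DROSHA and DGCR8 cut the hairpin out of the primary transcript, exportin 5 carries it to the cytoplasm, and DICER1 trims it to the mature microRNA, which guides an Argonaute protein to messages that pair with its seed. p53 is known to activate the MIR34 genes, whose products target cell cycle messages, and PANK1, the gene that holds MIR107. The sources used here do not say which stretch of the transcript each probe set reads, so a value may stand for primary transcript, hairpin or both, and mature microRNAs were not measured apart.

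The sequences of the mature microRNAs from the genes that stood furthest apart between the arrays are shown with those of their closest relatives, since the relatives shared a seed and differed in their values. They are RefSeq sequences on GRCh38.p14, written 5′ to 3′, with the seed (bases 2 to 8) in capitals. Of the 173 genes 164 had an entry in the RefSeq microRNA table.
miR-107: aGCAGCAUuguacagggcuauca
miR-103a-3p: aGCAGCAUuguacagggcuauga
miR-218-5p: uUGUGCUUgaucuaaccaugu
miR-34a-5p: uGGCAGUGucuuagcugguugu
let-7a-5p: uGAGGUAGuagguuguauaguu
let-7i-5p: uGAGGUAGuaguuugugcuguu
miR-15a-5p: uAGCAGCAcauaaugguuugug
miR-16-5p: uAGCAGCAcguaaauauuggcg
miR-15b-5p: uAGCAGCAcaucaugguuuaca
miR-100-5p: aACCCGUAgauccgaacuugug
miR-31-5p: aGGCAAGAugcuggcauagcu
miR-25-3p: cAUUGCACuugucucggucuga
miR-21-5p: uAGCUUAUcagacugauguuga
The mature miR-107 and miR-103a-3p differed at 1 of 23 positions. Those of miR-15a-5p and miR-16-5p differed at 6 of 22, all outside the seed. The letters GCAGCA stand at bases 2 to 7 of miR-107 and at bases 3 to 8 of miR-15a-5p, so these 2 seeds overlap. The probe set of MIR107 was higher with p53 and that of MIR15A lower, while the mature forms were not measured apart.

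Most microRNA probe sets read the same in both arrays. Of the 173, 2 were higher with p53 by 2-fold or more (1.16%), 4 were lower by as much (2.31%), 160 lay within 0.5 of each other, and 114 had identical readings on the arrays. The same size rule took in 3.98% of all 33297 probe sets as higher and 3.1% as lower, and 5.13% and 3.65% of those with 1 gene symbol. The microRNA shares were below these, with no match for signal level. The median difference was 0.00 for the microRNA probe sets and 0.00 for all probe sets, a value that the equal pairs fix. Among the 59 that were not equal, 28 were higher with p53 and 31 lower.

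The members were dim as a group. By the mean of the 2 arrays, 32 of the 173 reached 7.38, which is the median over the whole array, and 88 lay under 5.97, the 25th percentile, in both arrays. Of the 141 dimmer members, 1 was 2-fold higher (0.709%) and 2 were 2-fold lower (1.42%), against 1.62% and 1.41% of all dim probe sets. Of the 32 brighter ones, 1 was higher (3.12%) and 2 were lower (6.25%), against 6.29% and 4.76% of all brighter probe sets. With counts of 1 and 2, none of these shares sets the microRNA genes apart.

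Equal values were more frequent here than elsewhere on the arrays. They made up 65.9% of the microRNA probe sets and 35.9% of all. Among probe sets under the median level the shares were 68.1% and 57.9%, and among the rest 56.3% and 14.2%. This split does not match the sets for level. The median of the mean levels was 5.34 for the dimmer members and 5.97 for all dim probe sets. For the brighter ones it was 7.88 and 8.99. Among the brighter equal members were MIR326 at 9.89, MIR210, the hypoxia-induced microRNA gene, at 9.15, and MIR221 at 8.91, each chosen after its values were seen. Of the 114 equal members, 104 held a value that another probe set of the p53 array also held. Over all equal probe sets this was so for 8948 of 11947 (74.9%), with no match for level. Why values were equal was not tested, and an equal pair is not read here as an unchanged transcript. Signal also moved with base composition: over the 155 members with a hairpin sequence, hairpin GC content (28.8% to 73.6%) and mean log2 intensity had a Pearson correlation of 0.64 and a Spearman correlation of 0.63. These points share 2 libraries, and the values are given as a description, so a higher level of 1 microRNA probe set than of another is not read as more transcript.

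**Figure D1:**
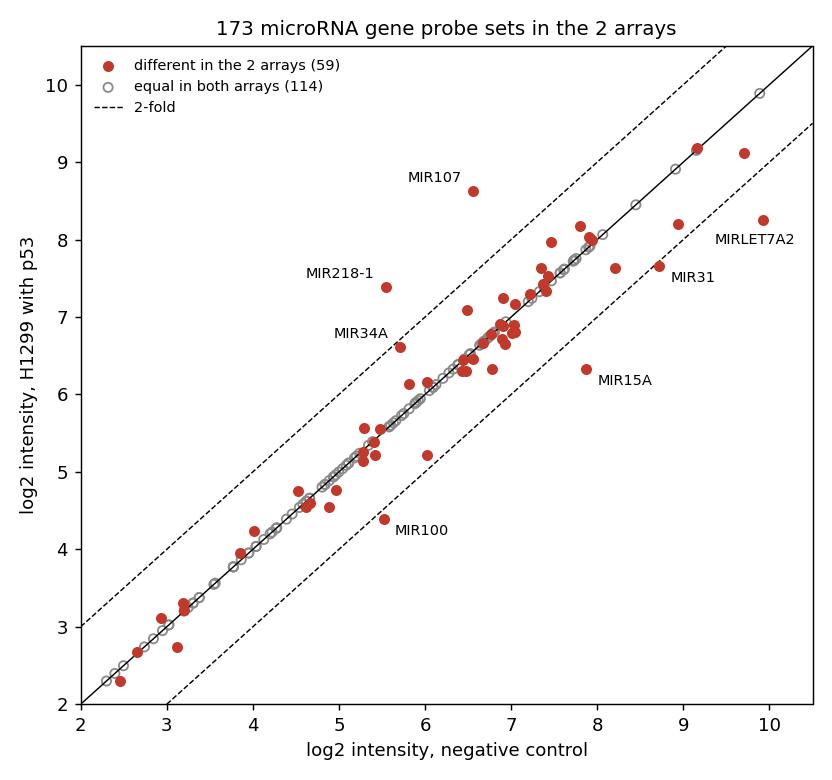
Log2 intensity with p53 (vertical) against log2 intensity in the negative control (horizontal) for the 173 microRNA gene probe sets, 1 array each; filled points differ between the arrays and open points are equal. MIR107 and MIR218-1 lie above the upper 2-fold line and MIRLET7A2, MIR15A, MIR100 and MIR31 below the lower one, while 114 points lie on the diagonal.

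MIR107 had the highest difference of the 173. It read 8.63 with p53 and 6.56 in the negative control, differing by 2.07 or 4.19-fold, and 1.26% of all probe sets had a larger absolute difference. Its hairpin lies at chr10:89592747-89592827 on the minus strand (GRCh38.p14), inside PANK1, which encodes a pantothenate kinase of coenzyme A synthesis. PANK1 read 9.96 with p53 and 7.10 in the control, differing by 2.87. The microRNA and its host were thus both higher with p53, the host by more. The related genes MIR103A1 and MIR103A2 lie in PANK3 and PANK2. MIR103A2 was at 6.13 with p53 and 5.81 in the control, differing by 0.32, beside 0.06 for PANK2. MIR103A1 was at 5.73 in both arrays, beside -0.25 for PANK3. Of the 3 measured genes with the seed of miR-107, only MIR107 was past 2-fold.

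MIR218-1, whose mature product miR-218-5p MIR218-2 also encodes, came next. It read 7.38 with p53 and 5.54 in the control, differing by 1.84 or 3.58-fold. Measured from the 25th percentile level of 5.97, a floor above its control value, the difference was 1.41. The hairpin lies at chr4:20528275-20528384 on the plus strand, inside SLIT2, the gene of a secreted guidance ligand for ROBO receptors. SLIT2 read 9.49 with p53 and 6.53 in the control, differing by 2.96. MIR218-2 lies in the paralogue SLIT3 and was at 6.46 with p53 and 6.55 in the control, while SLIT3 was at 8.46 with p53 and 8.44 in the control. The SLIT2 copy and its host were higher with p53, whereas both readings of the SLIT3 copy lay within 0.10 of each other.

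MIR34A, the best known microRNA gene induced by p53, stayed under the 2-fold rule. It read 6.61 with p53 and 5.70 in the control, differing by 0.91 or 1.88-fold, and 8.45% of all probe sets had a larger absolute difference. From the floor of 5.97 the difference was 0.64. The hairpin lies at chr1:9151668-9151777 on the minus strand, inside the non-coding gene MIR34AHG, for which no probe set with 1 symbol was used here. The MIR34B probe set was at 5.60 in both arrays. The probe set named for MIR34BHG and MIR34C was at 4.72 in both. Within the MIR34 family, then, 1 of the 3 genes differed between the arrays, and all of these readings were below the median of all probe sets.

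The other members higher with p53 had smaller differences. MIR181B2 was at 7.09 with p53 and 6.49 in the control (0.60), and its neighbour MIR181A2 was at 7.25 with p53 and 6.90 in the control (0.35). In the paralogous cluster, by contrast, no gene was higher, with MIR181B1 at 6.80 with p53 and 7.01 in the control (-0.21) and MIR181A1 at 4.28 in both arrays. MIR330, in the gene of the microtubule-associated protein EML2, read 7.97 with p53 and 7.46 in the control (0.51), beside 0.31 for EML2. MIR30C2 was at 8.17 with p53 and 7.80 in the control (0.37), MIR27A at 7.64 with p53 and 7.35 in the control (0.29) and MIR455 at 5.57 with p53 and 5.29 in the control (0.28, beside 0.85 for its collagen host COL27A1). These 3 complete the 10 largest positive differences, of which only MIR107 and MIR218-1 passed 2-fold. MIR28, at 4.24 with p53 and 4.01 in the control (0.23), lies in LPP, a focal adhesion gene at 11.77 with p53 and 10.78 in the control (0.99). Both readings of MIR455 and of MIR28 were under 5.97.

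**Figure D2:**
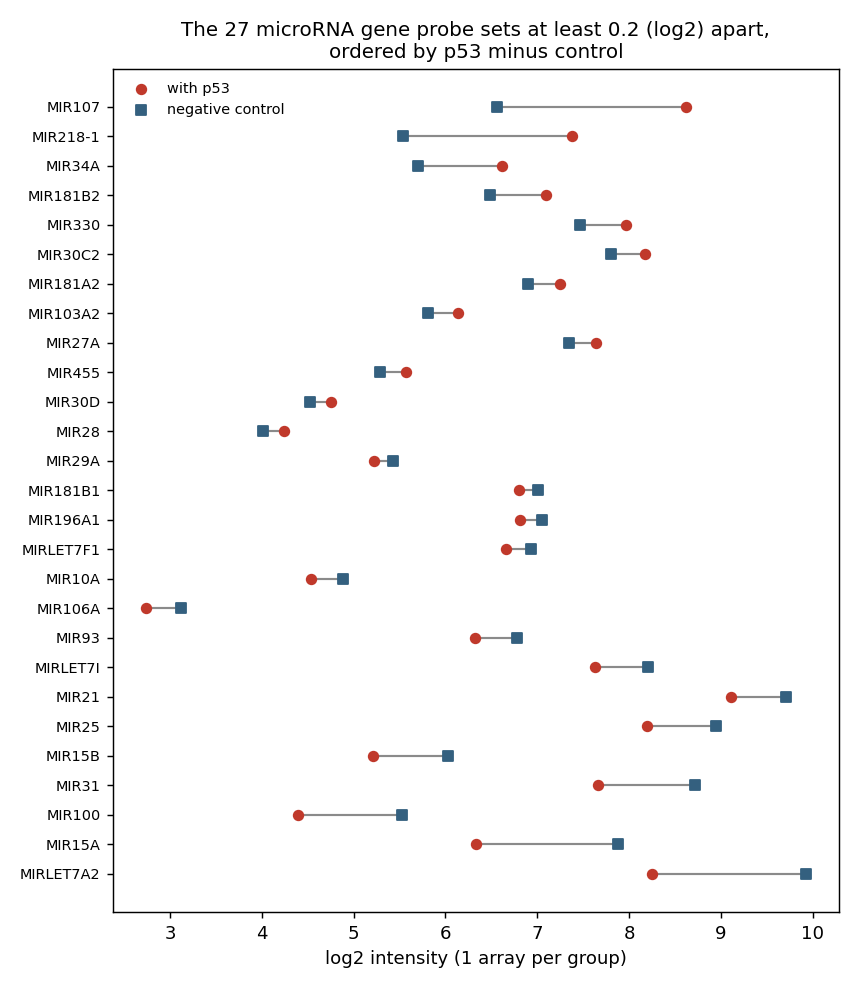
Log2 intensity with p53 (circles) and in the negative control (squares) for the 27 microRNA gene probe sets at least 0.2 apart, ordered from the highest to the lowest difference, 1 array per group. The widest gap in the positive direction is that of MIR107 (2.07) at the top and in the negative direction that of MIRLET7A2 (-1.67) at the bottom, and most of the others span less than 0.5.

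MIRLET7A2, a let-7 gene, had the lowest difference. It read 8.25 with p53 and 9.92 in the negative control, with a log2 difference of -1.67 or 3.19-fold lower, and both values were above the overall median of 7.38. Its hairpin lies at chr11:122146522-122146593 on the minus strand, inside the non-coding gene MIR100HG, together with MIR100 and MIR125B1. MIR100 was at 4.39 with p53 and 5.52 in the control, with a log2 difference of -1.14, but both values were under 5.97, so its fold rests on dim signal, and with an offset of 32 before log2 the difference was -0.56. MIR125B1 was at 6.31 with p53 and 6.48 in the control (-0.17). All 3 genes of this transcript were lower with p53, by unequal amounts, and no probe set of MIR100HG itself was used here.

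The let-7 genes share the seed GAGGUAG, and 10 of them, MIR98 included, were measured. MIRLET7I was at 7.63 with p53 and 8.21 in the control (-0.58), and MIRLET7F1 was at 6.66 with p53 and 6.93 in the control (-0.27). The remaining 7 held the same value in both arrays. None of the 10 was higher with p53. The probe set named for MIRLET7B and MIRLET7BHG was at 7.61 with p53 and 7.80 in the control, and that for MIRLET7A3 and the same host was at 6.61 in both.

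MIR15A and MIR16-1 come from 1 transcript, DLEU2, a non-coding gene that is often lost together with them in chronic lymphocytic leukaemia. MIR15A read 6.33 with p53 and 7.87 in the control, with a log2 difference of -1.54 or 2.91-fold lower. DLEU2 read 7.38 with p53 and 9.18 in the control, with a log2 difference of -1.80. MIR16-1 was at 3.95 in both arrays, under the 25th percentile level. The host and MIR15A were both lower with p53, and the reading of MIR16-1 did not follow them. The hairpin of MIR15A lies at chr13:50049119-50049201 on the minus strand.

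The second copy of this pair lies in SMC4, which encodes a condensin subunit that compacts mitotic chromosomes. MIR15B was at 5.21 with p53 and 6.03 in the control (-0.82), and MIR16-2 was at 4.77 with p53 and 4.97 in the control (-0.20). SMC4 read 10.04 with p53 and 11.19 in the control, with a log2 difference of -1.15. Both microRNA genes and the host were lower with p53, the microRNA genes by less than 2-fold and on dim signal. From the floor of 5.97 the difference was -0.06 for MIR15B and 0 for MIR16-2, and with an offset of 32 before log2 it was -0.49 for MIR15B. Over the 5 measured genes with the seed AGCAGCA, namely these 4 and MIR195, 3 were lower with p53, 2 were equal and none was higher.

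MIR25, MIR93 and MIR106B lie in MCM7, a subunit of the replicative helicase. MIR25 was at 8.20 with p53 and 8.94 in the control (-0.74). MIR93 was at 6.33 with p53 and 6.78 in the control (-0.45), and MIR106B was at 6.88 with p53 and 6.90 in the control (-0.02). MCM7 read 10.26 with p53 and 12.07 in the control, with a log2 difference of -1.81. The 3 members were on the same side as the host and each differed by less than it did. Of the paralogous cluster on the X chromosome, MIR106A was at 2.74 with p53 and 3.11 in the control (-0.37, and -0.07 with the offset of 32; both readings were under 5.97), while MIR19B2 and MIR92A2 were equal in both arrays. MIR17HG, the host of the related MIR17 cluster, is no member and was named after its value was seen: it read 6.65 with p53 and 7.66 in the control, with a log2 difference of -1.01.

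MIR31 and its host were lower by about the same amount. MIR31 was at 7.66 with p53 and 8.72 in the control, with a log2 difference of -1.06 or 2.08-fold lower. MIR31HG, the non-coding host, was at 6.96 with p53 and 8.04 in the control, with a log2 difference of -1.08. With an offset of 32 before log2, MIR31 (-0.95) and MIR31HG (-0.92) were under 2-fold. The hairpin lies at chr9:21512115-21512185 on the minus strand. MIR21, a microRNA gene often high in carcinomas, was at 9.11 with p53 and 9.71 in the control (-0.59), and VMP1, the autophagy gene in whose span it lies at chr17:59841266-59841337, was at 12.34 with p53 and 12.73 in the control (-0.40). With MIR10A at 4.54 with p53 and 4.89 in the control (-0.35, both under 5.97), the lower members with the largest differences are complete: the 10 lowest, and MIR10A after them.

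**Figure D3:**
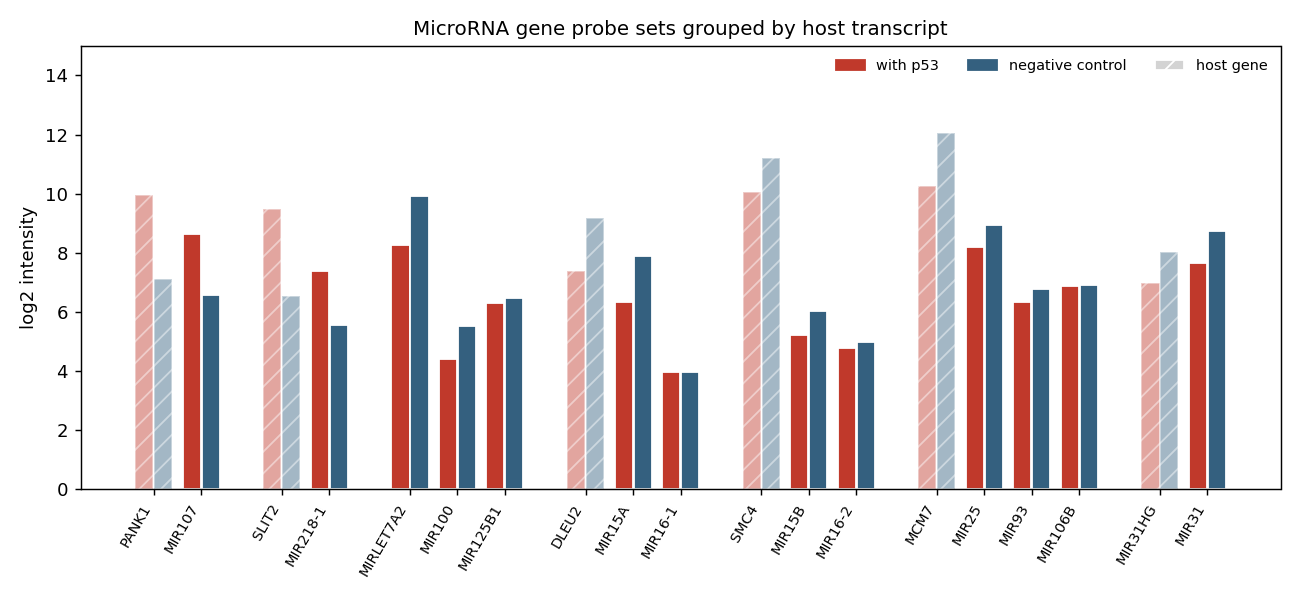
Log2 intensity with p53 (left bar of each pair) and in the negative control (right bar) for microRNA gene probe sets grouped by the transcript that holds them, with the host gene hatched where it was measured, 1 array per group. PANK1 and SLIT2 and their microRNA genes are higher with p53, and DLEU2, SMC4, MCM7 and MIR31HG are lower, with MIR16-1 equal at 3.95 and MIR106B 0.02 lower.

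Host genes were found by position, as genes whose RefSeq span holds the microRNA gene on the same strand; the tables hold no exon positions. Of the 164 members with a position, 112 had such a host, and for 63 of them a host was measured, 52 hosts in all. Past 2-fold were 3 hosts in the positive and 4 in the negative direction, where the backgrounds over 18417 genes were 5.22% and 3.7%. The hosts past 2-fold in the positive direction were SLIT2, PANK1 and GPC1, the gene of a heparan sulphate proteoglycan, which was at 9.44 with p53 and 8.43 in the control (just past 2-fold, and 0.94 on the log2 scale with the offset of 32). Those in the negative direction were MCM7, DLEU2, SMC4 and MIR31HG.

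For all 8 members at least 0.5 apart that had a measured host, the signs matched, and in 6 of the 8 the host's difference was the larger. With the offset of 32 before log2, MIR15B (-0.49) and MIR330 (0.44), both among the 8, lay inside 0.5. Over the 19 members for which neither the microRNA nor the host was equal in both arrays, 16 had the sign of their host. Several of these share a host, so they are not independent, and the count is a description. Of all members with a measured host, 42 of the 63 held equal values, of which 14 had an equal host and 9 had a host at least 0.5 apart. MIR149 was at 7.92 in both arrays, with its host GPC1 past 2-fold. MIR7-2 lies in AEN, a nuclease gene induced by p53, and was at 5.92 in both arrays beside 0.97 for AEN. MIR101-2 was equal beside 0.95 for RCL1, MIR185 beside 0.94 for TANGO2, and MIR26B beside -0.89 for CTDSP1. The readings of MIR7-2 and of MIR101-2, which was at 3.31, were under 5.97. MIR326 lies in the span of ARRB1, whose strand the tables do not give, and was at 9.89 in both arrays while ARRB1 read 11.56 with p53 and 8.35 in the control (3.21).

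**Figure D4:**
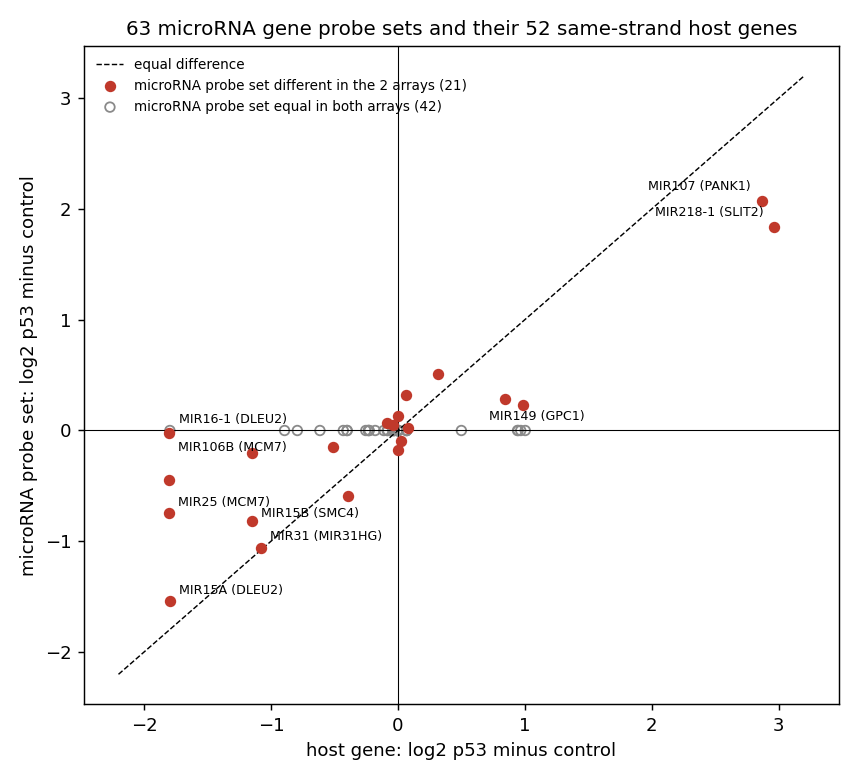
Difference of the microRNA gene probe set (vertical) against the difference of its same-strand host gene (horizontal), both log2 with p53 minus log2 in the negative control, for 63 probe sets and 52 hosts; open points are microRNA probe sets equal in both arrays. MIR107 and MIR218-1 lie at the upper right with their hosts PANK1 and SLIT2, MIR15A at the lower left with DLEU2, and 42 points lie on the zero line whatever their host did.

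Neighbouring microRNA genes were compared in clusters, taken as hairpins at most 10 kb apart on 1 strand. There were 38 such clusters with 96 probe sets, those with several symbols included, and in 14 clusters each probe set was equal in both arrays. Those 14 include MIR182, MIR96 and MIR183, the pair MIR221 and MIR222, the pair MIR192 and MIR194-2, and the pair MIR200C and MIR141. Only the pair of MIRLET7A2 and MIR100 had 2 genes past 2-fold. In the imprinted microRNA region of chromosome 14, 1 cluster of 9 had a single gene with unequal values, MIR134, at 7.33 with p53 and 7.40 in the control, and the cluster of 5 around MIR494 had none.

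From the list of 43 microRNA genes known for p53 regulation, chosen from general knowledge, 26 had a probe set with 1 symbol. Of these 16 were equal in both arrays, 4 were higher and 6 lower. MIR107 was the 1 member at least 2-fold higher, and MIR15A the 1 at least 2-fold lower, against backgrounds of 5.13% and 3.65%. Besides MIR34A, the epithelial genes MIR200B (7.30 with p53, 7.22 in the control) and MIR429 (6.90 with p53, 6.87 in the control) were higher, by 0.08 and 0.03. MIR192, MIR194-1, MIR194-2 and MIR215, reported as p53 targets that act on the cell cycle, were all equal. MIR145 and MIR143, whose probe sets also carry the host symbol CARMN, were at 4.39 and 6.75 in both arrays. MIR200A, MIR504, MIR125B2 and MIR182 were equal as well. MIR29A was at 5.22 with p53 and 5.42 in the control (-0.21), and MIR29B1 was equal. The list was chosen with results of these data known, so its counts are a description.

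None of the 32 probe sets with several symbols was 2-fold apart, and those named were chosen after their values were seen. Over all probe sets 3.98% were higher and 3.1% lower by this rule, and 32 are too few to read against that. Of the 32, 20 were equal (62.5%, against 35.9% of all probe sets), 7 were higher and 5 lower. The highest was that of MIR224 and its host GABRE, a GABA receptor subunit gene, at 5.79 with p53 and 4.84 in the control (0.95). Both of these readings were under 5.97, so the difference rests on dim signal. GABRE's own probe set read 8.51 with p53 and 7.63 in the control (0.88). The probe set of MIR27B and AOPEP was at 7.03 with p53 and 6.49 in the control (0.54), and that of MIR29B2 and its host MIR29B2CHG at 4.15 with p53 and 3.65 in the control (0.51). The lowest was that of MIR622 and KRT18, at 12.63 with p53 and 13.02 in the control (-0.39). KRT18, a keratin gene, had 2 probe sets of its own. The one with the higher mean was at 12.47 with p53 and 12.78 in the control (-0.31). Which of its symbols a probe set with several symbols reads cannot be told apart.

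Promoter windows from 250 bases before to 50 after each RefSeq start were searched for motifs in the hosts of the 2-fold members, MIR34A, SMC4 and MCM7. The motifs were the p53 half-site consensus, the E2F-type motif TTTCCCGC and the cell cycle element TTTGAA, each on both strands. Among all 35116 windows they occurred in 6.63%, 1.63% and 15.2%. The p53 half-site was found in 1 of the 2 windows of PANK1 and in 1 of the 6 of MIR100HG. It was in none of those of SLIT2, MIR34AHG, DLEU2, MIR31HG, SMC4 or MCM7. TTTCCCGC was found in 1 of the 3 windows of MCM7, and TTTGAA in both windows of PANK1, in 3 of MIR100HG and in 1 each of DLEU2 and SMC4. A match is a description and not a bound site. Sequence outside these windows was not searched, so a window without a match does not mean a gene without a site. As an example of each of these 2 motifs, a PANK1 window and the MCM7 window are shown. The half-site is in capitals in the first, and the E2F-type motif, on the opposite strand, in the second. PANK1 is the host of MIR107, which was higher. MCM7 is the host of MIR25, MIR93 and MIR106B, which were lower by less than 2-fold. The MIR100HG window with the half-site, at AAGCATGTTT and at AAGCATGCTC, is not shown. The genes measured in MIR100HG, MIRLET7A2, MIR100 and MIR125B1, were lower with p53, so the half-site was not found only beside higher members. The PANK1 window is chr10:89645193-89645492 and the MCM7 window chr7:100101348-100101647, both on the minus strand of GRCh38.p14.
PANK1: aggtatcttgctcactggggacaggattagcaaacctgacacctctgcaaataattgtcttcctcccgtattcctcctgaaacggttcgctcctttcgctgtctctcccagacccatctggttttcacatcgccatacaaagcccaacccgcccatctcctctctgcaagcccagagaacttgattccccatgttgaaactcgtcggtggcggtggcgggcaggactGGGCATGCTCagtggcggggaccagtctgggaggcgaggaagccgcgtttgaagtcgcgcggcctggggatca
MCM7: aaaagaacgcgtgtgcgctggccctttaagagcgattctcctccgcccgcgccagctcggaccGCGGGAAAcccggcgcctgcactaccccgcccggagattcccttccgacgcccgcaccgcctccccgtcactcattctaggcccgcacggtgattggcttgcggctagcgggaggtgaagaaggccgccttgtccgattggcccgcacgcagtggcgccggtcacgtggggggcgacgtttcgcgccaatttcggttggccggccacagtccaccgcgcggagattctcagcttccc

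The genes that process microRNAs were mostly somewhat lower with p53. Of 31 measured genes on a list of 32, 2 were higher by 2-fold or more and 1 was lower by as much, against 5.22% and 3.7% of all genes, while 21 differences were below 0, 7 above and 3 equal. The median was -0.22, beside 0.00 over 18417 genes, a value that equal pairs fix. Among all probe sets not under the median level, where most of the list lies, 49.4% were below 0. Among all probe sets not equal in both arrays, 55.5% were below 0 and the median was -0.04. None of these sets was matched to the list for signal level.

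By step of the pathway, the nuclear cutting enzyme DROSHA was at 9.39 with p53 and 9.86 in the control (-0.47), and its partner DGCR8 was at 8.66 with p53 and 9.18 in the control (-0.53). XPO5, exportin 5, was at 10.06 with p53 and 10.95 in the control (-0.89). DICER1 was at 10.82 with p53 and 11.58 in the control (-0.76). Each of these 4 core genes was lower, by less than 2-fold. Among the Argonaute genes AGO2, which encodes the slicing member, was at 9.84 with p53 and 10.44 in the control (-0.61), AGO1 and AGO4 were also lower (-0.75 and -0.52), and AGO3 was higher (0.38). GEMIN4, found in complexes with Argonaute, was at 7.73 with p53 and 8.75 in the control (-1.02), which lay between -0.99 and -0.92 with lowess, quantile normalization or the offset. On the other side, TNRC6C, a GW182 protein gene that links Argonaute to the decay of messages, was at 10.88 with p53 and 8.40 in the control (2.48 or 5.57-fold), while TNRC6A and TNRC6B stood at -0.41 and 0.26. TUT7, a terminal uridyltransferase that acts on let-7 precursors, was at 10.08 with p53 and 8.96 in the control (1.13), and its relative TUT4 was at -0.01.

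**Figure D5:**
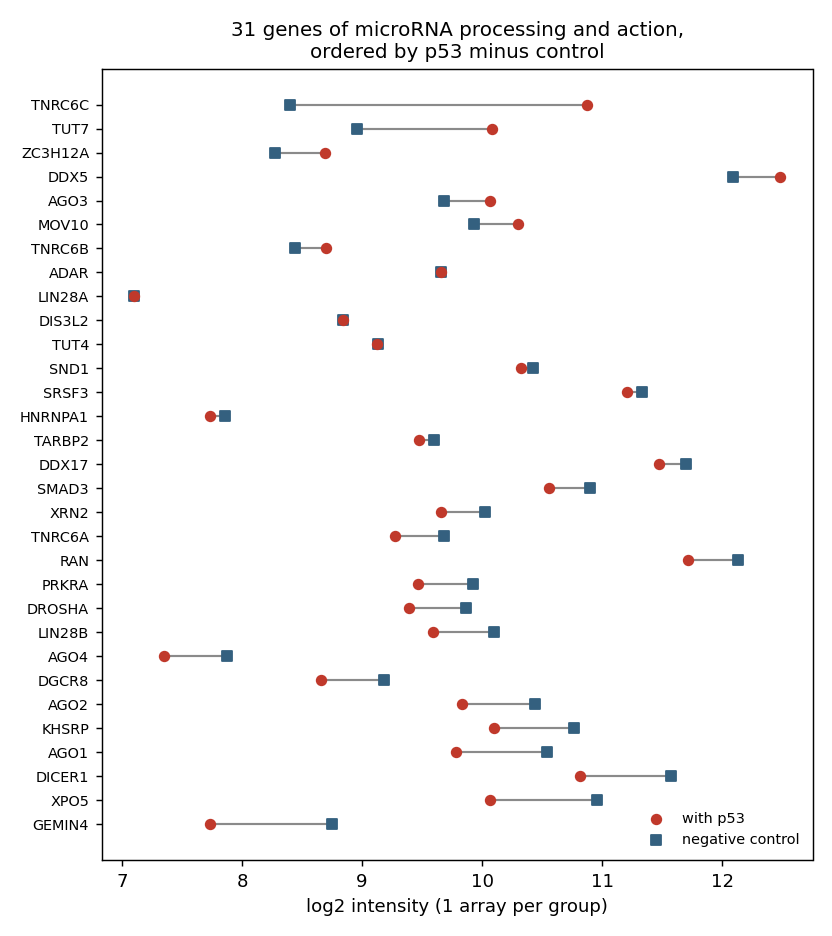
Log2 intensity with p53 (circles) and in the negative control (squares) for 31 genes of microRNA processing and action, ordered from the highest to the lowest difference, 1 array per group. TNRC6C (2.48) and TUT7 (1.13) have the widest gaps toward p53 and GEMIN4 (-1.02) the widest toward the control, while 21 of the 31 lie lower with p53.

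As a check of the labels, the p53 targets CDKN1A and MDM2 were higher with p53, by 3.49 and 2.71. The epithelial keratin genes KRT8 and KRT18 were at 12.84 and 12.47 with p53 and at 12.52 and 12.78 in the control. VIM, a mesenchymal filament gene that many carcinoma lines and other cell types express, was at 12.92 with p53 and 13.07 in the control. The leukocyte markers PTPRC and CD3E, the endothelial markers PECAM1 and CDH5 and the fibroblast markers COL1A1 and COL1A2 each held 1 value in both arrays, under the median level of 7.38 except for COL1A1 at 8.14.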

How the data were processed

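Biotin-labelled total RNA, prepared with Trizol, was measured on Affymetrix arrays according to the labels' protocols. The authors deposited RMA values, per the submitters' processing notes. They were read here as log2 intensity because of their range, although the log base of the deposited values is not stated. No source used here gives the software or the probe set definition. Having 1 array per group limits precision.

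Probe sets were named through the platform annotation, with symbols updated by gene identifier. Where a host, processing or marker gene had several probe sets, the one with the highest mean was used. Hosts, clusters and strands came from RefSeq tables of GRCh38.p14, whatever build the arrays were designed on. Probe sets were counted as higher or lower from a 2-fold difference on, with no test. The counting was run on simulated data whose shifts lay far past the threshold, so that run checks the code and not the rule. The text names members at least 2-fold apart, the 10 largest differences in each direction, measured members of the p53 list, their hosts, the 10 hosts with the largest differences, and processing genes at least 2-fold apart with DROSHA, DGCR8, XPO5, DICER1 and AGO2. Relatives, cluster neighbours and other processing genes named besides were chosen after their values were seen. The members and lists were chosen with earlier results of these data known. Python 3.11.15, numpy 2.4.6, pandas 2.3.3, statsmodels 0.14.6 and matplotlib 3.10.9 were used.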

Additional observations from a re-analysis of the deposited data

How the results depend on the processing

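No paired analysis was possible because each group has 1 array, and for the same reason no array could be left out. Centring on the median of all probe sets, removal of a lowess trend (span 0.3), quantile normalization, inclusion of the probe sets with several symbols, omission of the equal ones and averaging per gene each left 2 members at least 2-fold higher and 4 lower. An offset of 32 before log2 left 2 higher and 2 lower, since MIR100 was then at -0.56 and MIR31 at -0.95. A filter on the mean of the 2 arrays left 1 higher and 2 lower among 32 members, and a filter on the higher array left 1 higher and 3 lower among 34, because the highest reading of MIR218-1 was just under the median level. A threshold of 1.5-fold gave 4 higher and 7 lower of 173, where 2547 of all 33297 probe sets were higher and 2936 lower. One of 3-fold gave 2 higher and 1 lower, and its share over all probe sets is not given here. The median stayed between -0.01 and 0.00 under these settings. No named gene past 2-fold changed sign under centring, lowess, quantile normalization or the offset. With the offset MIR31HG (-0.92) and GPC1 (0.94) were also under 2-fold. With lowess LPP (1.03), AEN (1.03) and RCL1 (1.01) were past 2-fold. GEMIN4 was under 2-fold with lowess (-0.99), quantile normalization (-0.99) and the offset (-0.92). Most members are dim, and without replicates no difference, dim or bright, can be told from variation between arrays.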

Other observations

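Host genes of microRNAs whose symbols end in HG are no members, and 16 had a probe set with 1 symbol. MIR4697HG was at 8.49 with p53 and 6.18 in the negative control, 4.96-fold higher, and was the 1 host of this kind past 2-fold in that direction. MIR22HG, the host of MIR22, was at 8.32 with p53 and 7.70 in the negative control (0.62). MIR31HG and MIR17HG were the 2 lower by 2-fold or more. Over 18417 genes 5.22% were higher and 3.7% lower by this rule, and the counts of 1 and 2 among 16 are too small to read against it. Of the 16 hosts 4 held the same value in both arrays.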
